A study of Mus musculus with 12 samples.

Results

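Interferon response genes are the transcripts that cells switch on when interferon signals through its receptors, and they were followed here in the mammary gland of mice given estradiol. A list of 41 such genes was matched to the array platform by gene symbol, and 38 had a probe set of their own, out of 18193 genes measured. Isg15, Ifi44 and Tgtp1 had none, and Isg15 and Tgtp1 are covered by probe sets that list several genes. Where a gene had several probe sets, as 15 of the 38 did, the brightest on average across the 12 arrays was used. All values are log2 intensities, so a difference of 1 is a 2-fold change.

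Total RNA came from virgin, ovariectomized C57BL/6 mice of 2 genotypes, Ccnd1+/+ (wildtype) and Ccnd1-/- (knockout), so ovarian hormone was removed in every group. Ccnd1 codes for cyclin D1, which binds and activates the kinases that carry cells through G1, and the labels name no tissue-restricted deletion. For 7 days each genotype carried a placebo or an estradiol pellet (0.72 mg, 60-day release), which gave 4 groups of 3 separate mice with 1 array each. The labels give no age, name no particular gland and are silent on the lymph node within it. The question the study's title raises is whether cyclin D1 determines the response to estrogen, which for these genes is the estradiol difference in each genotype and the test of whether those differ.

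Interferons of type I bind a receptor that activates the kinases Jak1 and Tyk2, and a complex that includes Stat2 and Irf9 then binds the interferon-stimulated response element in target promoters. Interferon gamma, the type II interferon, acts on a different element, the gamma-activated site, and induces Irf1 and many large GTPases. The targets include enzymes that degrade or block viral RNA, sensors of foreign nucleic acid, proteins that hold virus particles at membranes, and feedback inhibitors. In the mammary gland they are expressed by epithelium, stroma and resident immune cells alike.

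The promoters of 8 of these genes are shown because each carries the core of 1 or both elements, while their genes had average estradiol differences from -0.48 (Irf1) to 1.98 (Oas1a). RefSeq promoters (GRCm38.p6) matched 31 of the 41 listed genes. Each window of 250 bases before to 50 after the start was searched on both strands for the core of the response element, GAAA followed after any 2 bases by GAAA again, and for TTCNNNGAA, the core of the gamma-activated site. The sequences are the 160 bases before the start, 5′ to 3′ on the gene's strand, with matches to either pattern in capitals, where adjacent matches merge. Oas1a lies at chr5:120907526-120907685 (minus strand), Bst2 at chr8:71537473-71537632 (minus), Ifit1 at chr19:34640729-34640888 (plus) and Ifit3 at chr19:34583369-34583528 (plus). Gbp2 lies at chr3:142620503-142620662 (plus), Irgm1 at chr11:48871421-48871580 (minus), Igtp at chr11:58199396-58199555 (plus) and Irf1 at chr11:53769854-53770013 (plus).
Oas1a: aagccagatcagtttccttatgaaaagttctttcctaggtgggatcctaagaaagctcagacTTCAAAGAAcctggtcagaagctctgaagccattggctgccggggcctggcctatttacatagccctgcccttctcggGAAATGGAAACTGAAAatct
Bst2: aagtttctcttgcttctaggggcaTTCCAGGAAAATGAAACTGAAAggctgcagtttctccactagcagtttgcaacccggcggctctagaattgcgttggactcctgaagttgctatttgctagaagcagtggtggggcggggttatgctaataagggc
Ifit1: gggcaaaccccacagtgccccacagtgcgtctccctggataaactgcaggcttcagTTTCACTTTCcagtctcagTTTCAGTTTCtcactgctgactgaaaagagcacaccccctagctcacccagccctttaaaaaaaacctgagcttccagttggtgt
Ifit3: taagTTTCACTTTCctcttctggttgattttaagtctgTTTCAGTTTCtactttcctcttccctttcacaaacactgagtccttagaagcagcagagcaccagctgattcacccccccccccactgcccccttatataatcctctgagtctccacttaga
Gbp2: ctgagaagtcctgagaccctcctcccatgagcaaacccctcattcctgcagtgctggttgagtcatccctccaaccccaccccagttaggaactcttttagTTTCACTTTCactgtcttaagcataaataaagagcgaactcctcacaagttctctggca
Irgm1: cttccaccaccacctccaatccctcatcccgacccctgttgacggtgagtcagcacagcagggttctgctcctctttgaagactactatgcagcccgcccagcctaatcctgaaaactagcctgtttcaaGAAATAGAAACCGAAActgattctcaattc
Igtp: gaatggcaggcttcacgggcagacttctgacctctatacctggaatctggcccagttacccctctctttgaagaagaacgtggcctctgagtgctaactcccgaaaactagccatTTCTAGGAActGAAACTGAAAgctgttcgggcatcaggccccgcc
Irf1: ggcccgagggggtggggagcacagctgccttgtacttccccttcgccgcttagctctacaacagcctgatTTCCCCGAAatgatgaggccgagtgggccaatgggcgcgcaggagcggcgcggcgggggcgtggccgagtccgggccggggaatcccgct

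The response-element core was present in 17 of the 31 matched promoters (54.8%), against 3.44% of all 32851 promoters in the RefSeq table, or 3.99% of its 27025 genes. The gamma-activated core was present in 9 of 31 (29.0%), against 8.3% of all promoters, or 9.55% of genes. In the printed 160 bases, Oas1a and Bst2 held 2 matches to the first core and 1 to the second, and in Bst2 they form a single merged run. Ifit1 and Ifit3 held 2 matches each to the first core on the opposite strand, and Irf1 held none of the first and 1 of the second. Among the genes described below, the windows without a match to the first core included those of Irf7, Oasl1, Oasl2, Xaf1, Ifit2 and Ifi35. A match is a description of the letters only, and no match says that the pattern is not in that window.

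The deleted gene separated the genotypes. Ccnd1 ranged from 7.24 to 7.68 (log2 intensity) on the 6 knockout arrays and from 8.50 to 10.82 on the 6 wildtype arrays, a difference of -1.93, and the two-sided exact permutation test gave p = 0.00216, the smallest that the 924 arrangements allow. Array medians lay between 5.73 and 5.8, arrays correlated pairwise at 0.937 to 0.993 across genes, and no pair was identical. Marker lists were read for the cell types of the gland. None of the luminal, basal, adipocyte or fibroblast markers measured was under the arrays' lower quartile on all 12 arrays. A single array above that quartile is enough to pass, so this is a weak check. Skeletal muscle markers averaged 7.65 to 12.48 in wildtype placebo and 8.72 to 10.25 in wildtype estradiol. In knockout they averaged 4.98 to 10.92 on placebo and 5.73 to 11.29 on estradiol. Luminal markers averaged 8.84 to 10.46 on the wildtype estradiol arrays and 4.87 to 6.38 on the knockout estradiol arrays. The mean of the centred T and B cell markers cut across the groups. It lay between -2.17 and -1.95 on 5 lymphocyte-poor arrays (wildtype placebo 3, wildtype estradiol 1 and 3, knockout placebo 2, knockout estradiol 1) and between 0.28 and 2.35 on the 7 others, called rich. In bulk tissue, fewer cells of a type and less RNA per cell cannot be told apart.

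In wildtype glands 33 of the 38 interferon response genes had a higher mean with estradiol, and 6 passed the test. Irf7, the transcription factor that amplifies type I interferon production, was 2.03 ± 0.39 (SE) log2 units higher, the OAS family members Oas1a, Oas2 and Oasl2 were 2.46 ± 0.37, 1.52 ± 0.22 and 3.23 ± 0.65 higher, and Rtp4 and Xaf1 were 1.46 ± 0.28 and 1.06 ± 0.22 higher. In knockout glands none passed, with differences of 1.88, 1.5, 0.84, 1.67, 1.37 and 0.57 for the same genes in that order. Averaged over both genotypes, 8 rose and none fell. Those 8 were Irf7, 4 of the 5 OAS genes and 3 effectors. None of the 6 measured GTPases that interferon gamma induces passed the test. With 1.58% of all genes called, no call among 6 does not set that group apart.

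Tests came from limma on all genes with Benjamini-Hochberg adjustment, and a gene is called at an adjusted p under 0.05. In wildtype glands 6 members rose and 0 fell, while 1.88% of all genes were called in either direction. In knockout glands 0 members were called, against 0.0989% of all genes. At an unadjusted p under 0.05, 21 members passed in wildtype and 15 in knockout, all of them higher with estradiol, against 13.5% and 8.32% of all genes. Averaged over genotypes 8 were called, against 1.58% of all genes, and 24 passed unadjusted, 23 higher and Irf1 lower, against 16.4%.

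The middle of the list was shifted as well. The members were chosen with earlier results of these data known, so the shares of all genes describe the list and do not test it. The median difference of the 38 genes was 0.73 in wildtype and 0.51 in knockout, where the median over all genes was 0.01 in both. In wildtype 33 members, and in knockout 31, had a difference above 0, against 52% and 51% of all genes, and on the average of genotypes 31 did, against 53%. All 3 estradiol arrays lay above all 3 placebo arrays for 23 members in wildtype (11.9% of all genes) and for 18 in knockout (8.37%). No share of all genes was computed for both genotypes together, so the 15 members that did so in both are a description only. The reverse held for Irf1 in wildtype (5.11% of all genes) and for Trim25 in knockout (5.09%).

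**Figure D1:**
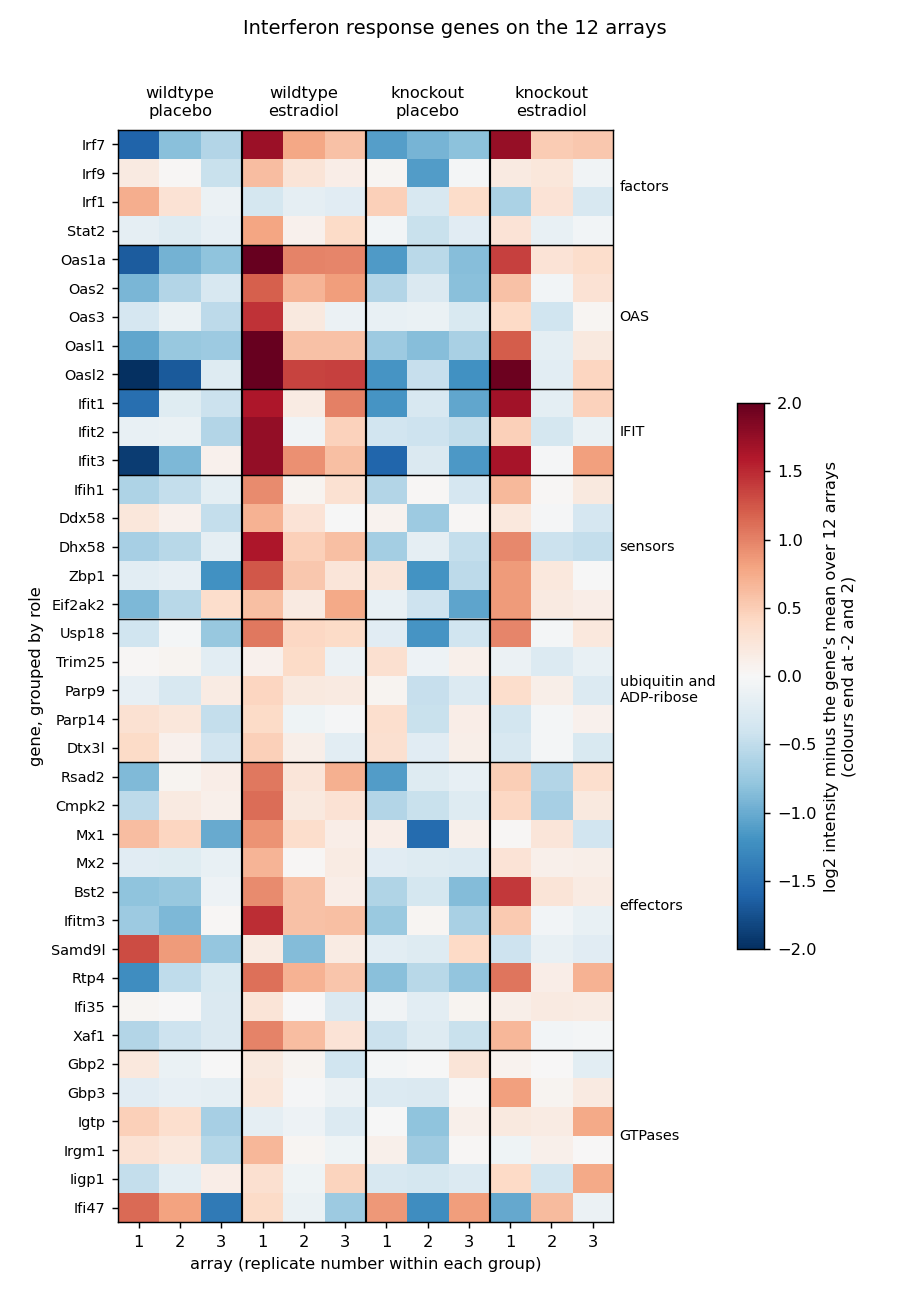
Log2 intensity of each of the 38 genes minus its own mean over the 12 arrays, with genes in rows grouped by role and arrays in columns by group (colours end at -2 and 2). The OAS and IFIT rows are red on most estradiol arrays and darkest on estradiol array 1 of each genotype, and the GTPase rows show no such block.

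Among the transcription factors, 1 of 4 rose in wildtype (1.88% of all genes called) and on the average of genotypes (1.58%). Irf7 measured 7.91, 8.67 and 8.92 on the wildtype placebo arrays and 11.22, 10.28 and 10.09 on the wildtype estradiol arrays. In knockout glands it measured 8.40, 8.58 and 8.69 on placebo and 11.24, 10.01 and 10.05 on estradiol. Every estradiol array lay above every placebo array in both genotypes, and estradiol array 1 was highest in each. The average estradiol difference was 1.96 ± 0.28 (SE), with an adjusted p of 0.0081 (limma), and the wildtype difference had an adjusted p of 0.0332 and the knockout difference one of 0.199.

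The other 3 factors were not called. Stat2, which works with Irf9 at the response element, measured 5.67, 5.60 and 5.68 in wildtype placebo against 6.64, 5.94 and 6.24 in wildtype estradiol, and 5.79, 5.40 and 5.62 against 6.12, 5.71 and 5.8 in knockout. The groups did not overlap in wildtype and did in knockout, and the average difference was 0.45 ± 0.13 (adjusted p = 0.129, limma). Irf9, which contacts the DNA there, differed by 0.45 ± 0.21 on average.

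Irf1, a factor best known as a target of interferon gamma, had differences below 0. It measured 10.31, 9.87 and 9.46 in wildtype placebo and 9.22, 9.40 and 9.35 in wildtype estradiol. In knockout it measured 10.05, 9.26 and 9.94 on placebo and 8.94, 9.85 and 9.26 on estradiol. All wildtype estradiol arrays lay below all wildtype placebo arrays, and the knockout groups overlapped. Its average difference of -0.48 ± 0.20 was not called (adjusted p = 0.28, limma).

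The OAS family is named for the enzymes that make the short oligoadenylates that activate the ribonuclease RNase L, and the Oasl genes are its OAS-like members. All 5 measured members were higher with estradiol in wildtype (52% of all genes) and in knockout (51%). In wildtype 3 rose (1.88% of all genes called) and on the average of genotypes 4 did (1.58%). The family median was 2.03 in wildtype and 1.15 in knockout. RefSeq places the 5 genes on chromosome 5, with Oas2 next to Oas3 and Oasl2 next to Oasl1.

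Oas1a measured 7.89, 8.62 and 8.75 in wildtype placebo and 11.56, 10.55 and 10.53 in wildtype estradiol. On the knockout arrays it measured 8.43, 9.02 and 8.70 against 10.92, 9.83 and 9.91. No placebo array reached an estradiol array in either genotype. The wildtype difference of 2.46 ± 0.37 had an adjusted p of 0.0103 and the average difference of 1.98 ± 0.26 one of 0.00557 (limma), and the knockout difference was 1.5 ± 0.37 (adjusted p = 0.307).

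Oas2 had the smallest SE of the family. It measured 7.65, 7.98 and 8.25 in wildtype placebo, 9.77, 9.25 and 9.40 in wildtype estradiol, 7.98, 8.28 and 7.74 in knockout placebo and 9.16, 8.51 and 8.85 in knockout estradiol. The estradiol arrays were higher without overlap in both genotypes, and the knockout estradiol arrays all lay below the wildtype ones. The wildtype difference was 1.52 ± 0.22 (adjusted p = 0.00934), the knockout difference 0.84 ± 0.22 (adjusted p = 0.341) and the average 1.18 ± 0.16 (adjusted p = 0.006, all limma).

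Oasl2 had the largest wildtype difference and the largest SE of the family. Oasl2 measured 5.48, 6.36 and 7.78 in wildtype placebo and 10.51, 9.39 and 9.41 in wildtype estradiol, and 6.87, 7.58 and 6.84 against 10, 7.83 and 8.47 in knockout. The placebo arrays spanned more than 2 log2 units in wildtype. The differences were 3.23 ± 0.65 in wildtype (adjusted p = 0.0386, limma) and 1.67 ± 0.65 in knockout (adjusted p = 0.537), with an average of 2.45 ± 0.46 (adjusted p = 0.0313).

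Oasl1 measured 6.40, 6.69 and 6.72 in wildtype placebo and 9.83, 8.03 and 8.03 in wildtype estradiol, and 6.72, 6.59 and 6.79 against 8.65, 7.25 and 7.64 in knockout. The estradiol arrays were all higher, with array 1 far above the other 2 in wildtype. It passed on average (1.59 ± 0.33, adjusted p = 0.0473, limma) and not in wildtype alone (2.03 ± 0.47, adjusted p = 0.0629). Oas3, a further oligoadenylate synthetase, was 0.84 ± 0.35 higher in wildtype and 0.21 ± 0.35 higher in knockout, and was not called.

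**Figure D2:**
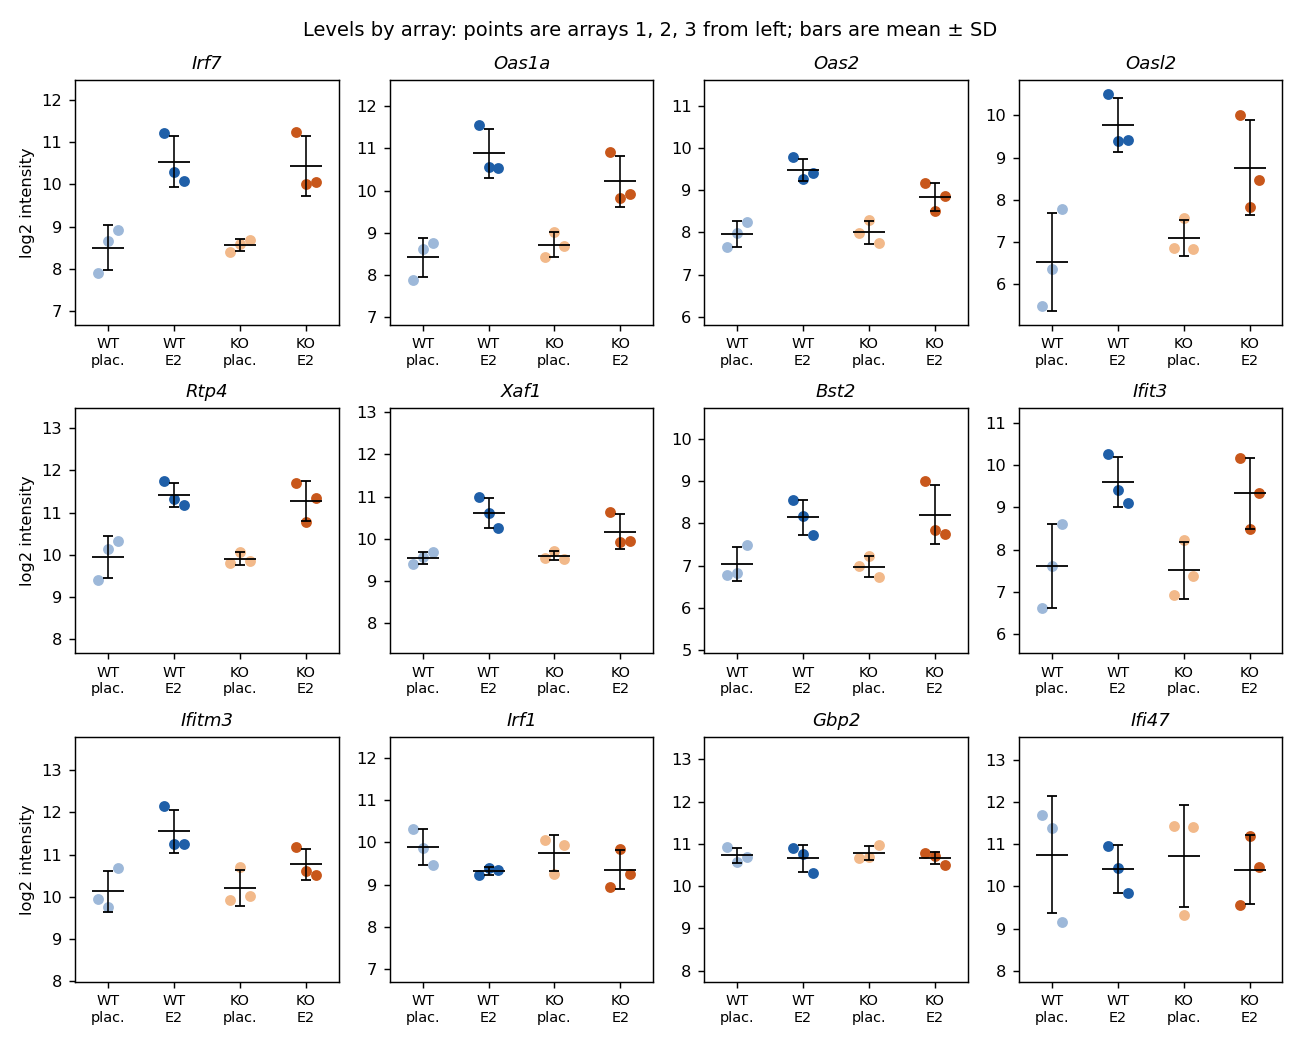
Log2 intensity of 12 genes on the 12 arrays, with points for arrays 1, 2 and 3 from the left and bars for the mean and SD of each group (WT wildtype, KO knockout, plac. placebo, E2 estradiol). Irf7, Oas1a, Oas2, Oasl2, Rtp4, Xaf1, Bst2 and Ifit3 are higher on every estradiol array than on the placebo arrays of the same genotype, Gbp2 is level, and Ifi47 splits within groups, with wildtype placebo values of 11.70, 11.38 and 9.16.

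The IFIT proteins bind viral RNA and block its translation. All 3 measured members were higher with estradiol without overlap in wildtype (11.9% of all genes) and in knockout (8.37%), and none was called. With 1.88% of all genes called in wildtype and 1.58% on average, no call among 3 does not set the family apart. Ifit3 measured 6.62, 7.62 and 8.60 in wildtype placebo and 10.27, 9.42 and 9.11 in wildtype estradiol, and 6.92, 8.23 and 7.37 against 10.16, 8.49 and 9.34 in knockout. Its average difference of 1.90 ± 0.41 had an adjusted p of 0.0512 (limma), just outside the threshold. The wildtype placebo arrays spanned as much as the wildtype difference of 1.98.

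Ifit1 measured 6.93, 8.19 and 8.0 in wildtype placebo and 10.05, 8.59 and 9.44 in wildtype estradiol, and 7.25, 8.11 and 7.39 against 10.11, 8.24 and 8.90 in knockout. Ifit2 measured 8.02, 8.04 and 7.58 against 9.92, 8.10 and 8.63 in wildtype, and 7.78, 7.75 and 7.68 against 8.65, 7.82 and 8.04 in knockout. For both genes the second estradiol array lay close to the placebo range in each genotype. The average differences were 1.58 ± 0.38 (adjusted p = 0.0749) and 0.72 ± 0.28 (adjusted p = 0.242, limma).

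Among the 5 sensors of foreign nucleic acid, none was called. With 1.88% of all genes called in wildtype and 1.58% on average, no call among 5 does not set them apart. All 5 differences were above 0 in wildtype (52% of all genes) and in knockout (51%). Ifih1 (MDA5), which senses long double-stranded RNA, measured 9.41, 9.55 and 9.82 in wildtype placebo and 10.97, 10.08 and 10.33 in wildtype estradiol, and 9.44, 10.04 and 9.68 against 10.67, 10.05 and 10.21 in knockout. The groups did not overlap in either genotype, though by only 0.01 between the knockout groups' nearest arrays. Its average difference was 0.73 ± 0.18 (adjusted p = 0.0827, limma).

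Eif2ak2 (PKR), the kinase that halts translation on double-stranded RNA, measured 4.98, 5.33 and 6.24 in wildtype placebo and 6.49, 6.06 and 6.64 in wildtype estradiol, and 5.73, 5.47 and 4.82 against 6.73, 6.06 and 6.02 in knockout. Wildtype groups overlapped through placebo array 3, and knockout groups did not overlap. The average difference was 0.91 ± 0.25 (adjusted p = 0.112, limma). Its 2 other probe sets gave average differences of 0.40 and 0.74.

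Zbp1, a sensor of Z-form nucleic acid that can trigger necroptosis, measured 6.99, 7.04 and 5.99 in wildtype placebo and 8.45, 7.74 and 7.45 in wildtype estradiol, and 7.45, 6.01 and 6.68 against 8.06, 7.42 and 7.20 in knockout. Only the wildtype groups were free of overlap, and the average difference was 1.03 ± 0.30 (adjusted p = 0.136, limma). Dhx58 (LGP2), a regulator of the RIG-I-like sensors, was 1.37 ± 0.40 higher in wildtype and 0.46 ± 0.40 in knockout. Its other, dimmer probe sets gave 0.13 and 0.13 in wildtype and 0.26 and 0.15 in knockout. Ddx58 (RIG-I) itself differed by 0.38 and 0.17.

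The enzymes of ISG15, ubiquitin and ADP-ribose tagging were little shifted, with medians of 0.15 in wildtype and -0.11 in knockout. No call fell among these 5, where 1.88% of all genes were called in wildtype and 1.58% on average, which does not set them apart. The largest difference in the group was that of Usp18, the protease that removes ISG15 and dampens type I receptor signalling. It measured 8.50, 8.87 and 8.15 in wildtype placebo and 9.95, 9.31 and 9.28 in wildtype estradiol, and 8.67, 7.73 and 8.51 against 9.88, 8.87 and 9.11 in knockout. Groups did not overlap in either genotype, and the average difference of 0.99 ± 0.24 had an adjusted p of 0.0742 (limma).

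Parp9 and Dtx3l encode partners in 1 ADP-ribosylation and ubiquitination complex and are neighbours on chromosome 16. Parp9 measured 9.32, 9.17 and 9.65 in wildtype placebo and 9.92, 9.68 and 9.66 in wildtype estradiol, and 9.54, 9.03 and 9.21 against 9.83, 9.60 and 9.21 in knockout. Dtx3l measured 9.94, 9.64 and 9.17 against 10.03, 9.67 and 9.34, and 9.87, 9.33 and 9.68 against 9.24, 9.52 and 9.25. Parp9 differed by 0.33 ± 0.14 on average (adjusted p = 0.276) and Dtx3l by -0.10 ± 0.16 (adjusted p = 0.81, limma), with wide overlap for Dtx3l. Parp14, next to Dtx3l, and Trim25, the ubiquitin ligase that activates RIG-I, had average differences of -0.02 and -0.06.

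Of the 10 measured effectors, 2 rose in wildtype (1.88% of all genes called) and 3 on the average of genotypes (1.58%). Rtp4, an interferon-induced protein that also escorts receptors to the cell surface, measured 9.40, 10.14 and 10.34 in wildtype placebo and 11.74, 11.33 and 11.19 in wildtype estradiol. In knockout it measured 9.80, 10.08 and 9.85 against 11.71, 10.78 and 11.34. No estradiol array fell within the placebo range. The differences in the 2 genotypes, 1.46 and 1.37 (each ± 0.28), lay within 1 SE of each other. Their adjusted p were 0.0333 and 0.198, and the average was 1.41 ± 0.20 (adjusted p = 0.0081, limma). A second, dimmer probe set of Rtp4 gave 0.77 in wildtype, 0.61 in knockout and 0.69 on average.

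Xaf1, an antagonist of the apoptosis inhibitor XIAP, measured 9.40, 9.56 and 9.69 in wildtype placebo and 10.98, 10.60 and 10.25 in wildtype estradiol, and 9.55, 9.72 and 9.53 against 10.64, 9.92 and 9.94 in knockout. Its placebo arrays were tightly grouped and lay below all estradiol arrays. The wildtype difference was 1.06 ± 0.22 (adjusted p = 0.0432) and the average 0.81 ± 0.16 (adjusted p = 0.0342, limma). Its second, dimmer probe set gave an average difference of 0.40.

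Bst2 (tetherin), which holds budding virus at the cell surface, measured 6.78, 6.83 and 7.49 in wildtype placebo and 8.54, 8.17 and 7.72 in wildtype estradiol, and 6.98, 7.23 and 6.72 against 9.01, 7.85 and 7.75 in knockout. The difference was at least as large in knockout (1.23 ± 0.35) as in wildtype (1.11 ± 0.35), and neither was called alone. The average, 1.17 ± 0.25, passed narrowly (adjusted p = 0.048, limma) and lost the call on leaving out 11 of the 12 arrays in turn, with adjusted p up to 0.136.

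The other 7 effectors were not called, and 6 of them had differences above 0 in both genotypes. Ifitm3, which blocks virus fusion at endosomes, was 1.41 ± 0.34 higher in wildtype and 0.56 ± 0.34 in knockout. Mx2, an interferon-induced gene, was 0.49 and 0.41 higher without overlap in both genotypes. Rsad2 (viperin) and its neighbour on chromosome 12, Cmpk2, differed by 0.74 and 0.51 on average, Mx1 by 0.42 and Ifi35 by 0.15. Samd9l had differences of -0.64 in wildtype and -0.24 in knockout.

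The GTPases that interferon gamma induces, which attack the vacuoles of intracellular parasites and bacteria, gave no call among 6. Gbp3 measured 9.87, 9.93 and 9.92 in wildtype placebo and 10.32, 10.07 and 9.98 in wildtype estradiol, and 9.83, 9.81 and 10.12 against 10.92, 10.15 and 10.28 in knockout. Iigp1 measured 9.23, 9.52 and 9.84 against 10.03, 9.63 and 10.16, and 9.39, 9.35 and 9.44 against 10.11, 9.34 and 10.46. Gbp3 was higher without overlap in both genotypes and Iigp1 overlapped in both. The average differences were 0.37 ± 0.14 (adjusted p = 0.218) and 0.49 ± 0.19 (adjusted p = 0.237, limma).

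Irgm1, an immunity-related GTPase linked to autophagy, measured 9.21, 9.14 and 8.36 in wildtype placebo and 9.59, 8.97 and 8.84 in wildtype estradiol, and 9.02, 8.22 and 8.95 against 8.84, 9.02 and 8.93 in knockout. Its groups overlapped throughout, with an average difference of 0.21 ± 0.20 (adjusted p = 0.651, limma). Igtp differed by -0.23 in wildtype and 0.61 in knockout, Gbp2 by -0.08 and -0.11 and Ifi47 by -0.33 and -0.32. Within the lymphocyte-poor arrays, every gene of this group but Gbp2 was higher on all estradiol arrays than on all placebo arrays (13.2% of all genes). Within the rich arrays none was (12.4% of all genes). Irgm2, which is not a member, was called on the average of genotypes and is given below. The promoters shown for Gbp2, Irgm1 and Igtp carry the response-element core, as those of Oas1a and Ifit1 do.

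**Figure D3:**
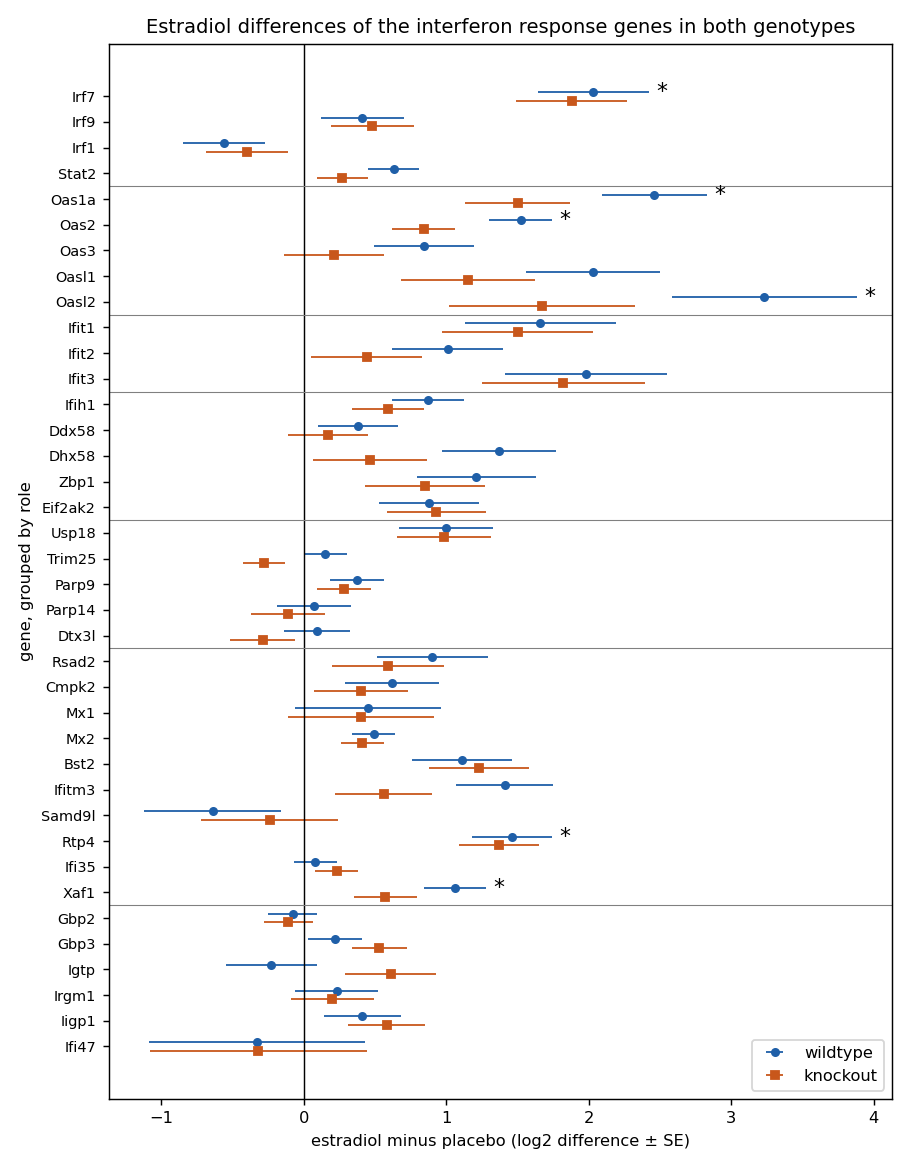
Estradiol minus placebo log2 difference (± SE) of each of the 38 genes in wildtype (circles) and knockout (squares), with an asterisk where the wildtype difference was called. The largest differences are in the OAS rows, where each wildtype point lies to the right of the knockout point, and the last 6 rows, the GTPases, lie between -0.33 and 0.61.

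The signed estradiol difference was lower in knockout than in wildtype for 28 of the 38 genes, and the test of that difference called none. Lower is not always smaller in size, as Trim25 differed by 0.15 in wildtype and -0.28 in knockout. The median interaction, the knockout response minus the wildtype response, was -0.16, against 0.00 over all genes, with 10 differences above 0 (50.1% of all genes). No member was called (0.011% of all genes were) and none had an unadjusted p under 0.05 (6.43% of all genes). The OAS members had the most negative values as a group, from -0.63 to -1.56, with Oasl2 at -1.56 ± 0.92 and Oas1a at -0.95 ± 0.53, and Igtp the highest at 0.84 ± 0.46. With SEs of this size the arrays do not settle whether the knockout response was smaller. The genotype and interaction comparisons share arrays with the estradiol comparisons.

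On placebo the median difference between genotypes, knockout minus wildtype, was -0.05 over the members and 0.02 over all genes, with 16 of 38 above 0 (54.3% of all genes), no call (0% of all genes) and no unadjusted p under 0.05 (2.03% of all genes). Under estradiol the median was -0.24 over the members against 0.03 over all genes, and only 7 of 38 differences lay above 0, where 55.2% of all genes did. None was called, against 1.12% of all genes, and Oas2 (-0.63 ± 0.22) and Ifitm3 (-0.78 ± 0.34) passed unadjusted, against 13.5%. All 5 OAS members had differences below 0 there, from -1.0 to -0.49.

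The list mean was carried in part by 1 array in each estradiol group. Estradiol array 1 was the highest of its group for 32 of 38 members in wildtype and 27 of 38 in knockout, where that array was highest for 36.8% and 36.9% of all genes. Centred list means were -0.38, -0.21 and -0.36 in wildtype placebo, 0.93, 0.28 and 0.27 in wildtype estradiol, -0.32, -0.49 and -0.31 in knockout placebo and 0.52, -0.02 and 0.10 in knockout estradiol. Every estradiol array lay above every placebo array. Without both of those arrays, 5 members rose in wildtype and 5 on average, against 1.21% and 0.687% of all genes called, and the wildtype median was 0.41.

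Leaving out each array in turn changed how many members were called. The wildtype count ran from 1 to 9 and the average count from 4 to 14, while the share of all genes called ran from 0.55% to 6.3% in wildtype and from 0.698% to 7.7% on average. The differences of the 6 genes called in wildtype stayed above 0 throughout. They ran from 1.69 to 2.25 for Irf7, 2.12 to 2.63 for Oas1a, 1.36 to 1.66 for Oas2, 2.70 to 3.85 for Oasl2, 1.18 to 1.65 for Rtp4 and 0.88 to 1.24 for Xaf1. Knockout arrays enter the wildtype comparison through the shared spread alone, and leaving some of them out also ended calls. In wildtype it fell to 1 without placebo array 1, to 2 without wildtype placebo 2, wildtype estradiol 1 or 2, or knockout placebo 1 or 3, and to 3 without wildtype estradiol 3 or knockout estradiol 3. The Oas2 call in wildtype held in all 12, that of Oas1a in 11 (adjusted p = 0.0509 without wildtype placebo 1, limma), and those of Irf7, Oasl2, Rtp4 and Xaf1 in 5, 4, 4 and 3. The wildtype count was 9 and the average count 14 without wildtype placebo 3, where 6.3% and 7.7% of all genes were called. The average count was 4 without wildtype placebo 1 or 2 or knockout placebo 1 or 3, and 5 without wildtype estradiol 3 or knockout estradiol 1 or 3. On the average of genotypes Irf7, Oas1a, Oas2 and Rtp4 held in all 12.

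Marker lists of the gland's cell types differed with estradiol in both directions. Of 11 measured macrophage and monocyte markers, 3 rose with estradiol in wildtype (1.88% of all genes called) and 0 in knockout (0.0989%). The 3 were Cd14, Fcgr1 and Fcgr3, of which Fcgr1 is itself interferon-inducible. The markers had median differences of 1.63 in wildtype and 0.50 in knockout. Their mean level ranged from 8.29 to 8.61 in wildtype placebo, 9.43 to 10.70 in wildtype estradiol, 8.53 to 8.71 in knockout placebo and 8.79 to 9.16 in knockout estradiol, and no marker was under the lower quartile on all arrays. Wildtype estradiol array 1 was highest for both lists. With the macrophage list's mean as a covariate no member was called in wildtype or on average (0.132% and 0.0495% of all genes were). The wildtype median became -0.03 and the average 0.13. That centred mean lay from -0.71 to -0.29 on the placebo arrays and from -0.21 to 1.70 on the estradiol arrays. It separates the treatments by itself, so this fit cannot part it from estradiol. Luminal and basal epithelial markers had median differences of 2.20 and 1.56 in wildtype and -0.01 and -0.03 in knockout, where the members' knockout median was 0.51. Of 8 fibroblast markers, all lay above 0 in wildtype and 1 rose, with medians of 0.83 in wildtype and -0.06 in knockout. Other immune lists had medians below 0 in wildtype and in knockout. These were -1.95 and -0.63 for T cells, -2.06 and -1.10 for B cells and -0.41 and -0.28 for NK cells. Neutrophil markers had -0.89 and -1.09, and dendritic cell markers -0.34 and -0.51. The part of these cells in the members' differences was not tested.

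**Figure D4:**
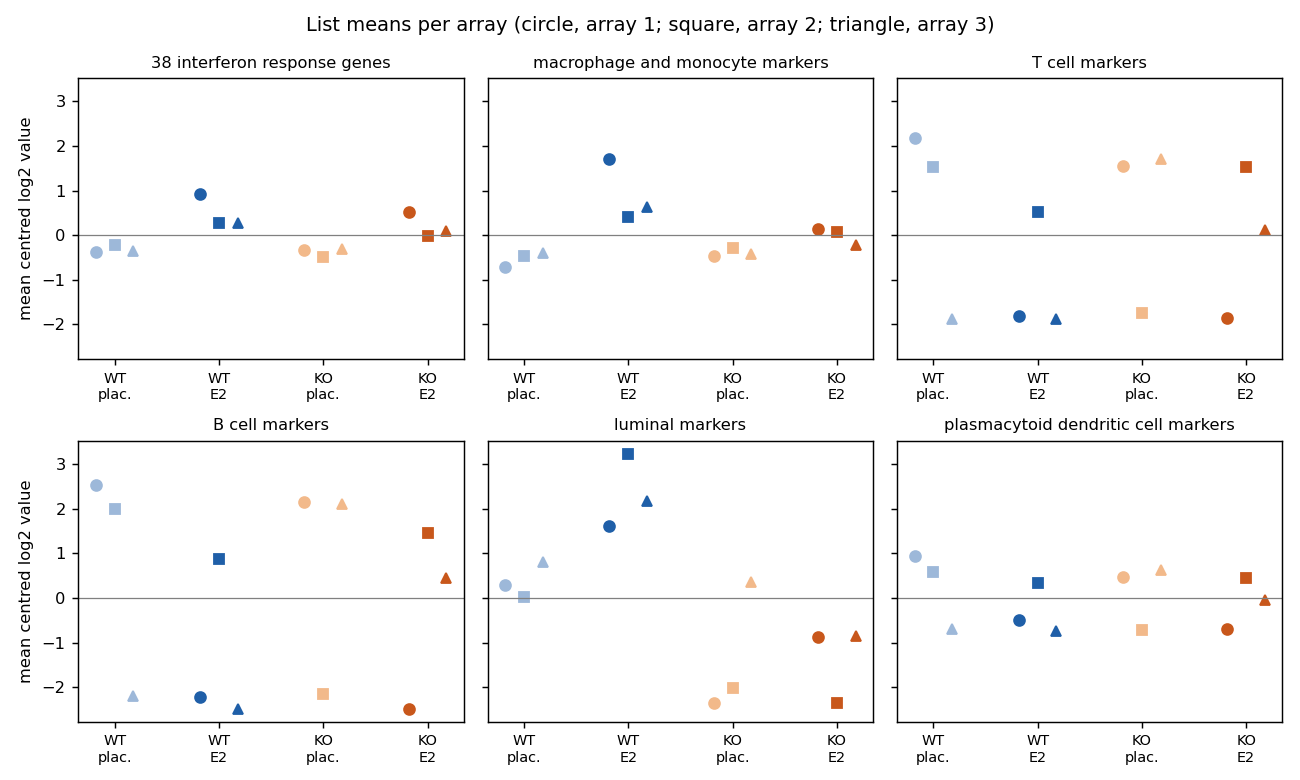
Mean log2 value of each list on each array after centring each gene over the 12 arrays, for the 38 genes and 5 marker lists (circle, square and triangle for arrays 1, 2 and 3). The 38 genes and the macrophage markers are higher on the estradiol arrays of both genotypes, and the T and B cell markers split arrays within each group.

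The plasmacytoid dendritic cell markers, which mark the main professional producers of type I interferon, did not follow the members. Of 8 measured, 7 were below 0 in both genotypes, and the exception was Bst2, which is also a member. Their centred means tracked the T and B cell markers, so the list does not tell these cells apart from lymphocytes. The part of plasmacytoid cells in the members' differences was not tested. Within the 7 lymphocyte-rich arrays (4 placebo, 3 estradiol), all estradiol arrays were higher for 15 members (12.4% of all genes) and all lower for 3 (Irf1, Parp14 and Ifi47; 9.48% of all genes), with a median difference of 0.27 against 0.03 over all genes. Within the 5 lymphocyte-poor arrays (2 placebo, 3 estradiol), 32 were higher (13.2% of all genes) and 0 lower (13.6%), with a median of 0.86 against -0.01 over all genes. Of those 3 estradiol arrays, 2 are estradiol array 1 of their genotype. The differences within classes pool both genotypes, which are not balanced. The poor estradiol arrays are wildtype 1 and 3 and knockout 1. The rich ones are wildtype 2 and knockout 2 and 3. Their T and B cell means, 0.71, 1.49 and 0.28, all lay below those of the rich placebo arrays (2.35, 1.75, 1.86 and 1.91). The rich class is therefore not matched for lymphocyte content between treatments. In both classes 15 members were higher, against 2.84% of all genes.

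Some members differed between the lymphocyte-poor and the rich placebo arrays, and those with the largest differences either way are named first. The poor arrays were the highest of their group for 49.6% (wildtype placebo 3) and 53.4% (knockout placebo 2) of all genes. No share of all genes was computed for these differences. The 2 lymphocyte-poor placebo arrays minus the 4 rich ones gave -2.24 for Ifi47, -1.59 for Mx1, -1.10 for Samd9l, -1.04 for Zbp1, -0.97 for Igtp, -0.84 for Irf9 and -0.79 for Irgm1. Oasl2, Ifit3 and Ifitm3 were 1.29, 1.28 and 0.79 higher there. Irf7 differed by 0.33. Within the rich arrays its estradiol difference was 1.70 and within the poor ones 2.10, and for Oas1a, Oas2 and Rtp4 the pairs were 1.69 and 2.11, 1.03 and 1.18, and 1.35 and 1.34. With lymphocyte class as a block, 8 members were called in wildtype and 14 on average, against 3.52% and 3.67% of all genes. Without the 2 lymphocyte-poor placebo arrays 12 and 18 were called, against 11.8% and 21.5% of all genes.

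The rest of the pathway was read from a list of 111 genes that are not members, of which 95 were measured. In wildtype 1 rose and 3 fell, where 1.88% of all genes were called in either direction. In knockout none passed (0.0989% of all genes). On the average of genotypes 2 rose and 2 fell (1.58% of all genes). The median difference was 0.01 in wildtype and -0.02 in knockout, where the members had 0.73 and 0.51. Further targets that are not members had medians of 0.06 and 0.09 over 47 genes. The members and lists were chosen with earlier results of these data known, so these contrasts describe them and test nothing.

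No ligand or receptor was called. Of 13 type I and III ligands 8 were measured, with wildtype differences from -0.21 to 0.13, and Ifna4, Ifna11 and Ifnab lay under the arrays' lower quartile on all 12 arrays. Ifng did too. Ifnb1 measured 4.80, 4.51 and 4.68 in wildtype placebo and 4.55, 4.60 and 4.83 in wildtype estradiol, so its groups overlapped. Ifnab and Ifna1 differed by -0.16 and -0.14 on average. The 6 receptor genes differed by -0.06 to 0.43, with Ifngr2, the signalling chain of the gamma receptor, at 0.43 ± 0.12 (adjusted p = 0.127, limma) and Ifnar2 at 0.19.

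The inducers of Ifng included Tbx21, a T cell factor that drives it, which fell by 1.14 in wildtype (adjusted p = 0.0289, limma), and Il12a and Il12b, with average differences of -0.19 each. No kinase, other IRF, upstream sensor or inhibitor was called. Stat3 differed by 0.32 and Jak1 by -0.30 on average, Irf2, a repressor of Irf1 targets, by -0.44 ± 0.12 (adjusted p = 0.117, limma), and Irf4 by 0.69. Tlr7, the endosomal sensor of single-stranded RNA, measured 6.68, 6.85 and 6.19 in wildtype placebo and 8.94, 7.13 and 7.92 in wildtype estradiol, a difference of 1.43 ± 0.38 (adjusted p = 0.0964, limma). Tbk1, the kinase that activates Irf3, differed by -0.30, and the Irf2 cofactors Irf2bp1 and Irf2bp2 by 0.18 and 0.29.

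The genes of the wider list that were called moved in both directions. Ido1, which degrades tryptophan, measured 4.89, 4.80 and 5.37 in wildtype placebo and 9.89, 11.98 and 10.50 in wildtype estradiol, and 5.02, 4.40 and 5.16 against 7.03, 4.50 and 5.24 in knockout. It rose by 5.77 ± 0.64 in wildtype (adjusted p = 0.00251, limma) and differed by 0.73 ± 0.64 in knockout, and under estradiol its level was lower in knockout, with a difference of -5.20 ± 0.64 (adjusted p = 0.0114). Cxcl9, a chemokine for activated T cells, measured 10.38, 10.06 and 10.22 in wildtype placebo and 8.53, 8.84 and 8.37 in wildtype estradiol, so it fell, by 1.64 ± 0.25 (adjusted p = 0.0112). Cd274 (PD-L1) fell by 1.04 in wildtype (adjusted p = 0.0452), and Irgm2 rose by 0.47 on average (adjusted p = 0.0472). Lgals9 and Ifitm2 were 0.85 and 0.83 higher on average and not called.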

How the data were processed

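Total RNA of 12 mammary glands was measured on 12 single-colour arrays of 45101 probe sets, 1 array per mouse. The deposited values are log2 intensities, which the authors normalised with RMA and limma 2.9.16 per the submitters' processing notes; the chip definition is not given in the sources used here. Of the probe sets, 34945 name a single gene in the platform table, 932 name several, 9160 name none and 64 are controls. Precision is limited by the number of arrays.

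The brightest probe set on average stood for each gene, and dim genes were kept. A limma fit (limma 3.58.1, R 4.3.3) of 4 group means over all 12 arrays, with eBayes (8 residual and 2.15 prior degrees of freedom), gave 6 two-sided comparisons, adjusted by Benjamini and Hochberg over 18193 genes. The limma script was tested on simulated data. Marker and list scores are means of centred log2 values. Named genes are the members called in any comparison, plus the members with the smallest p up to 3 per role, and of the pathway list the called genes and 2 per role; the rest appear by counts and ranges. Alternatives were other probe set choices, scalings, moderation, array weights, the replicate block and leaving out arrays. The members and lists were chosen with earlier results of these data known. Figures used matplotlib 3.10.9 in Python 3.11.15.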

Additional observations from a re-analysis of the deposited data

How the results depend on the processing

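The counts of called members in knockout, in both genotype comparisons and in the interaction stayed at 0 under every alternative. Against 6 in wildtype (1.88% of all genes called) and 8 on average (1.58%), median centring gave 2 and 5 (186 and 208 of all genes), array weights 20 (18 higher, 2 lower) and 22 (20 higher, 2 lower; 25.8% and 26.6%), and an adjusted p under 0.10 gave 14 on average (3.22%). The fit of the 6 wildtype arrays alone gave 0 (0.39%). Array weights ran from 0.249 to 5.831 and their estimation did not converge. Median centring moved the median of all genes by -0.126 in wildtype, 0.161 between genotypes under estradiol and 0.134 in the interaction. Same-numbered arrays did not pair (correlations of their deviations from -0.74 to 0.66), and the replicate block gave 2 and 4 (0.868% and 0.737%).

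Leaving out each array gave 1 to 9 called in wildtype and 4 to 14 on average (0.55% to 6.3% and 0.698% to 7.7% of all genes), and medians of 0.41 to 0.89 and 0.42 to 0.66. The genotype medians ran from -0.43 to -0.040 under estradiol and from -0.062 to 0.052 on placebo, and the interaction median from -0.34 to 0.074. With each probe set on its own the wildtype median was 0.43.

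Chosen after the data had been seen were the omission of the 2 lymphocyte-poor placebo arrays (12 and 18 called, 11.8% and 21.5% of all genes), lymphocyte class as a block (14 on average, 3.67%), and the omission of the first estradiol array of both genotypes (5 on average, 0.687%; wildtype median 0.41). The macrophage score as a covariate gave 0 and 0 (0.132% and 0.0495%). Its medians were -0.034 in wildtype, 0.13 on average, 0.13 between genotypes under estradiol and 0.28 in the interaction. The score separates all placebo from all estradiol arrays, so this fit cannot part it from estradiol, and the cause was not tested. Ccnd1 kept its direction, from -2.12 to -1.65 with each array left out.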
